A study of Mus musculus with 6 samples.

Results

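The cells described are 421 barcodes of the posterior mouse eye that carry the transcripts of fibroblasts, the matrix-forming cells of connective tissue. They hold few or no transcripts of the Pi16, Smoc1 and Wnt6 programs, which mark the other stromal cells of these samples. They were chosen from 55353 barcodes that held 1000 UMIs (counted molecules) or more, 500 genes or more and no more than 20% mitochondrial UMIs, out of 66434 barcodes in all. A member had at least 5 UMIs of Dcn and a UMI of at least 2 of Col1a1, Col1a2, Col3a1 and Lum. It also had at most 1 UMI of Wnt6, Wnt10a and Edn3 together, at most 2 of Smoc1 and Angpt1 together, at most 2 of Pi16, Ebf2 and Adgrd1 together, and none of Pecam1. The rule thus used measured values, and the levels of these 14 genes are given as a description only.

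Single cells were sequenced from the ocular cup (retina, choroid and posterior sclera) of mice given eye drops of tropicamide, a blocker of muscarinic acetylcholine receptors that relaxes the ciliary muscle, or of saline, after which the labels call that muscle contracted. Tropicamide was dropped 6 times at intervals of 10 min, followed by a wait of 1 h, and saline at the same interval, with its number of drops and its wait not given in the sources used here. Each group held 12 mice, of which the right eyes were used, pooled by 4 into 3 samples per group. The sources used here name no mouse strain, sex or age. Cornea, lens, iris and ciliary body had been cut away, and the pool of eyes is the replicate.

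Fibroblasts of the eye wall secrete collagens and small leucine-rich proteoglycans, which bind collagen fibrils and set their spacing. In the opaque sclera these cells resemble those of tendon, while the keratocytes of the transparent cornea carry keratocan and large amounts of soluble enzymes. Fibroblasts also switch on early response genes, such as Fos, Jun, Egr1 and the Klf family, within minutes of mechanical, growth factor or dissociation stimuli.

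The members numbered 115, 121 and 51 in tropicamide pools 1 to 3, against 36, 19 and 79 in saline pools 1 to 3. Those without any UMI of the 3 programs numbered 58, 43 and 22 in the tropicamide pools, against 24, 10 and 42 in the saline pools. Their summed UMIs were 1752009, 1748049 and 595692 in the tropicamide pools, against 579778, 299906 and 1128221 in the saline pools, so saline pool 2 gave the least precise sums. The median UMI count per member was 13209, 14884 and 9757 in the tropicamide pools, against 13731, 19902 and 10825 in the saline pools. The median mitochondrial share was 1.75%, 1.95% and 2.22% in the tropicamide pools, against 2.36%, 1.33% and 2.12% in the saline pools, and the groups overlapped in both measures. Of the members, 6 shared their barcode sequence with a barcode of another pool, as 1046 barcodes did over the whole series, and Scrublet called 8 of them doublets.

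The fibroblast genes of the rule are described first, and since the rule chose on them they do not test the label. Col1a1 was detected in 96.9% of them with a median of 109 UMIs, Col1a2 in 97.4% with a median of 92, and Dcn, which codes for decorin, reached a median of 164 UMIs. Lum, which codes for lumican, was detected in 84.1%, and Col3a1, a collagen of loose connective tissue, in 80.0% but with a median of only 2 UMIs. At the Dcn limit, the 18 members with 5 UMIs of Dcn had a median of 3749.5 UMIs in all, and the 51 barcodes with 4 UMIs that otherwise met the rule had a median of 12023. The limit on the Pi16 program left 49 members with a sum of 2 inside, at a median of 89 UMIs of Dcn, and 51 barcodes with a sum of 3 outside, at 76.

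The members were not 1 kind of cell. The cornea had been cut away, yet 198 members (47.0%) carried at least 5 UMIs of Kera, which codes for keratocan, together with Aldh3a1, a dehydrogenase that is abundant in the corneal stroma. These keratocyte markers were present in 58, 58 and 18 members of the tropicamide pools, against 23, 11 and 30 of the saline pools. As a share that was 50.4%, 47.9% and 35.3% of the members in the tropicamide pools, against 63.9%, 57.9% and 38.0% in the saline pools, so the groups overlapped. Among the 1670 barcodes that met the fibroblast part of the rule and carried the Pi16 program, 24 (1.44%) had the same markers, and of the 552 with the Wnt6 program 0 did.

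**Figure D1:**
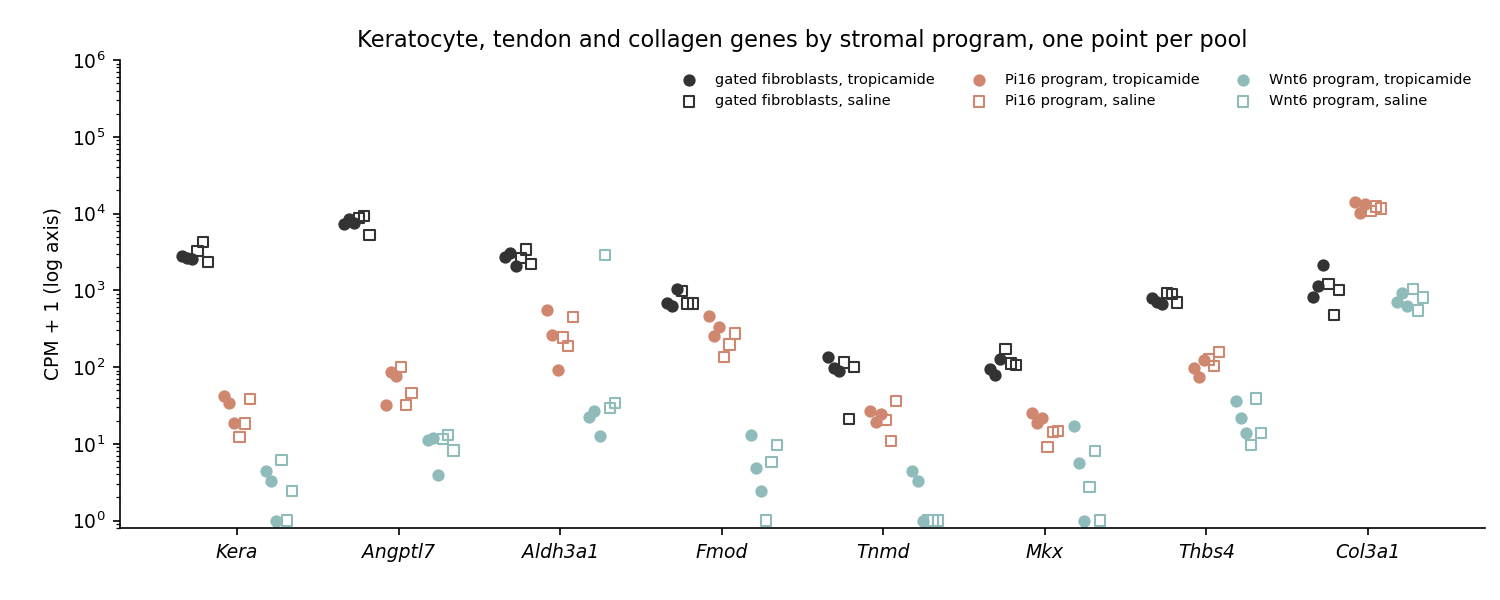
CPM + 1 (log axis) of 8 genes in the summed gated fibroblasts, Pi16-program and Wnt6-program barcodes, with 1 point per pool, filled circles for tropicamide and open squares for saline. Kera, Angptl7 and Fmod lie higher in the gated fibroblasts of every pool than in either program, Col3a1 lies highest in the Pi16 program, and the 2 groups overlap for each of the 8 genes in the gated fibroblasts.

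Summed per pool and scaled to the same library total (CPM), Kera stood at 2784, 2653 and 2540 CPM in the tropicamide pools, against 3265, 4225 and 2317 CPM in the saline pools. In the Pi16-program cells of the same 6 pools it lay between 11.3 and 40.9 CPM and in the Wnt6-program cells at no more than 5.21. Angptl7, a secreted factor of the corneal stroma and the trabecular meshwork, had 7396, 8514 and 7440.1 CPM in the tropicamide pools, against 8722, 9326 and 5232 CPM in the saline pools. The 2 groups overlapped for both genes, with log2 fold changes of -0.42 ± 0.21 for Kera and -0.11 ± 0.20 for Angptl7 (SE; edgeR adjusted p = 0.885 and 0.996). Fmod, which codes for the tendon and scleral proteoglycan fibromodulin, ranged from 614 to 1034 CPM in the tropicamide pools, against 673 to 971 CPM in the saline pools (-0.11 ± 0.22, edgeR adjusted p = 0.997). Since these programs were set apart by measured values, the differences between them are described and not tested.

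Clustering of the members alone gave 6 sub-clusters, whose defining genes describe them and are not results between groups. The largest, with 149 members and a median of 21266 UMIs, was led by Ephb1, Chsy3, Mamdc2, A2m, Tmem132c, Ass1 and Plod1. All 8 genes of the keratocyte list were detected there, as they were in sub-clusters 3, 4, 5 and 6. Angptl7 stood at 11842 CPM, Kera at 4449, Aldh3a1 at 3419 and Lum, which is a gene of the rule, at 5126 CPM. The list summed to 26530.5 CPM, against 2985 to 18806 CPM in the other sub-clusters. Of its members 141 had the keratocyte markers, so it is called keratocyte-like. None of the 8 was among its leading 10 genes, since other sub-clusters held them too.

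Sub-cluster 5, with 50 members, was led by Ptprt, C1qtnf3, Chad, Sfrp2, Gria4, Prg4, Rnf180 and Ssc5d. All 13 genes of the tenocyte and scleral list were detected, among them Fmod at 5429 CPM, Thbs4 at 2146, Prg4, which codes for lubricin, at 1019, and Tnmd, the tendon membrane protein tenomodulin, at 715 CPM. It is called tenocyte- or scleral-like, though Kera was detected in 84% of its members, at 1158 CPM, and 12 of them had the keratocyte markers. Sub-cluster 2, with 81 members and a median of 5465 UMIs, was led by Clec3b, Ramp1, Col3a1, Tnxb, Man1a, Slc43a3, Tppp3 and Plac9, with Col3a1 at 10597 CPM against 294 CPM in the other members, and stayed unnamed. Sub-cluster 3, with 72 members, was led by Clu, Igfbp7, Tsc22d1, Prkg1, Col8a1, Slc6a6, Tmtc1 and Fbln1, and also stayed unnamed. It too carried transcripts of other cell types. The melanocyte list stood at 633 CPM there, against 7.90 to 111 CPM in the other sub-clusters. The pericyte and smooth muscle list stood at 477 against 17.1 to 120 CPM, and the Müller glia list at 1696 against 614 to 801 CPM. The rod list, at 1523 CPM, was not highest there.

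The remaining 2 sub-clusters were led by transcripts of other cell types. The 59 members of sub-cluster 4 had a median of 20 UMIs of Dcn and were led by Otx2os1, Pcdh15, Fabp12, Dscaml1, Atp8a2, Syt1 and Rgs20, among them genes of photoreceptors, and the rod list summed to 9459 CPM there, against 1088 to 4334 CPM in the other sub-clusters, where all 12 of its genes were detected as well. The same 59 members had the keratocyte list at 18806 CPM, and 22 of them had the keratocyte markers. The 10 members of sub-cluster 6 had a median of 6 UMIs of Dcn and 40952 UMIs in all, and carried Krt12, the keratin of the corneal epithelium, at 20867 CPM and Krt15 at 11470 CPM. These 10 lay in 3 of the pools, with 3, 3 and 0 in the tropicamide pools, against 0, 0 and 4 in the saline pools.

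**Figure D2:**
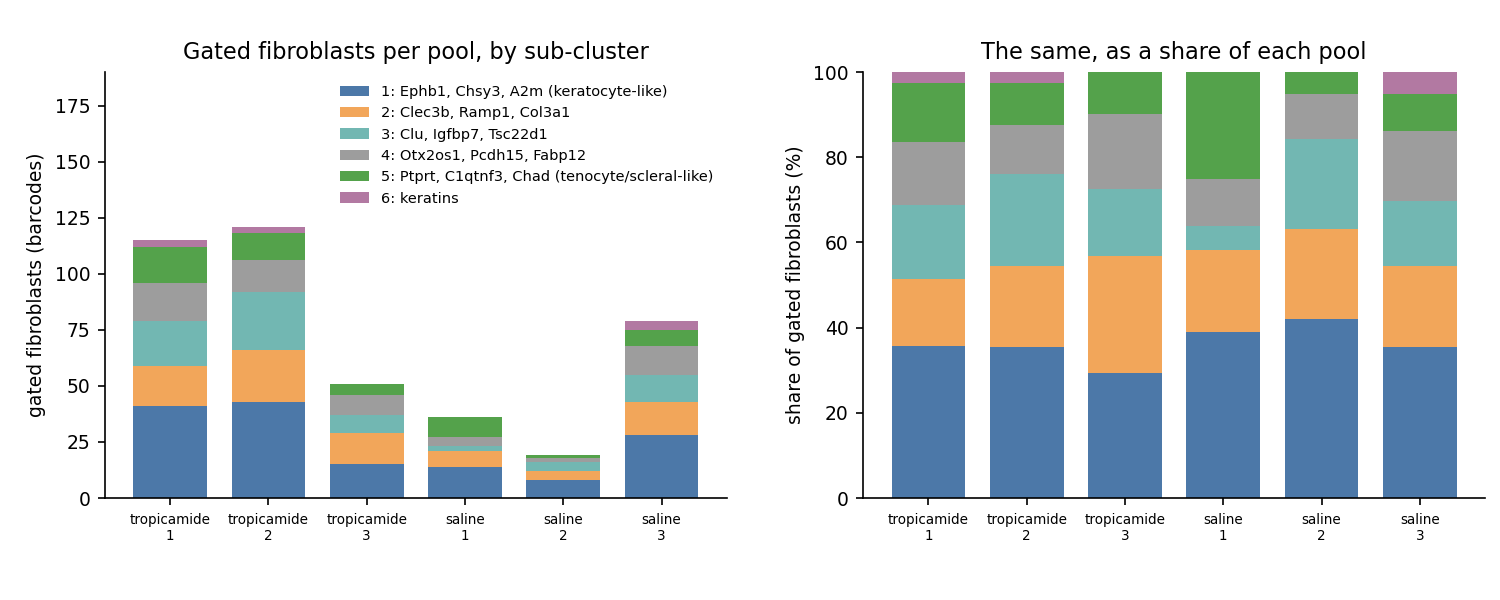
Gated fibroblasts per pool by sub-cluster, as barcodes (left) and as a share of the pool's members (right, %), with tropicamide pools left of saline pools and colours for the 6 sub-clusters. Tropicamide pools hold 51 to 121 members and saline pools 19 to 79, and the keratocyte-like sub-cluster makes up 29.4% to 42.1% of every pool.

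The shares of the larger sub-clusters overlapped between the groups. The keratocyte-like sub-cluster made up 35.7%, 35.5% and 29.4% of the members of the tropicamide pools, against 38.9%, 42.1% and 35.4% in the saline pools. The tenocyte- or scleral-like sub-cluster made up 16, 12 and 5 members of the tropicamide pools, against 9, 1 and 7 of the saline pools. No test of these shares was made, because the same cells defined the sub-clusters.

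Among the more abundant genes, mitochondrial and clone-like names aside, the members varied most, relative to counting error at their median depth, in Psca, Krt12, Gsto1, Ptgds, Asprv1, Krt15, Plet1, Spp1, Gsn and Lypd2. Most of these are surface epithelium genes and sat in few barcodes. The 5 highest members held 99.7% of the UMIs of Psca and 98.04% of those of Krt12, against 15.1% for Gsn, the actin-severing gelsolin, which was detected in 395 members. Krt12 had 2678, 3825 and 21.8 CPM in the tropicamide pools, against 29.3, 0 and 298 CPM in the saline pools, so the groups overlapped.

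The first question was whether the members made up a different share of the recovered cells after tropicamide. They were 1.44%, 1.03% and 0.491% of the quality barcodes in the tropicamide pools, against 0.483%, 0.222% and 0.856% in the saline pools. The mean was 0.988% ± 0.477 in the tropicamide pools, against 0.520% ± 0.319 in the saline pools (SD, n = 3 pools each), 1.90 times the share, and tropicamide pool 3 lay below saline pool 3. An exact permutation test (two-sided) of the logit-transformed shares gave p = 0.2, where 0.1 is the smallest that 20 arrangements allow. Among barcodes with at least 5 UMIs of Dcn, the members were 9.44% ± 1.95 in the tropicamide pools, against 7.43% ± 2.45 in the saline pools (SD, n = 3 pools each; exact permutation p = 0.4), a ratio of 1.27. The dissection sets how much eye wall each pool holds, so these shares do not count cells in the eye.

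The second question was which genes differed between the tropicamide and saline pools in the summed members. edgeR's quasi-likelihood test called 4 of 9096 genes at a Benjamini-Hochberg adjusted p under 0.05 (0.044%), all higher after tropicamide, namely Dkk3, Crhbp, Dapl1 and Sntg1, the last too low on average for the naming rule and named because the count is small. Dkk3 (ENSMUSG00000030772), a secreted protein of the dickkopf family, had 119, 123 and 97.4 CPM in the tropicamide pools, against 24.1, 26.7 and 22.2 CPM in the saline pools. The groups did not overlap, and the log2 fold change was 2.15 ± 0.21 (SE, edgeR adjusted p = 0.00875).

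Crhbp (ENSMUSG00000021680), which codes for the binding protein of corticotropin-releasing hormone, had 80, 123 and 45 UMIs in the tropicamide pools, against 0, 0 and 2 UMIs in the saline pools (edgeR adjusted p = 0.00875). Sntg1 (ENSMUSG00000025909), a syntrophin that anchors membrane proteins, had 46, 57 and 13 UMIs in the tropicamide pools, against 0, 0 and 1 UMI in the saline pools (edgeR adjusted p = 0.023). Dapl1 (ENSMUSG00000026989), an epithelial gene, had 295, 457 and 133 CPM in the tropicamide pools, against 5.17, 0 and 4.43 CPM in the saline pools (edgeR adjusted p = 0.00875). For these 3 genes the saline pools held too few UMIs for a stable fold change.

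The UMIs of the called genes sat in very few barcodes. The 5 highest members carried 60.04% of the UMIs of Dkk3, 98.4% of those of Crhbp, 84.2% of those of Dapl1 and 95.7% of those of Sntg1, and each of these barcodes came from a tropicamide pool. Crhbp was detected in 7 members of the tropicamide pools and 2 of the saline pools, and Sntg1 in 8 and 1. Dkk3 was detected more widely, in 73 members of the tropicamide pools (25.4%) and 26 of the saline pools (19.4%), with a median of 1 UMI where detected in either group. Of the 5 barcodes highest in Dapl1, 4 belonged to the keratin-bearing sub-cluster 6.

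The genes next in order of unadjusted p did not pass, and the highest values of those that were higher after tropicamide often came from the same barcodes. For the 15 such genes, which include the 4 called genes and Trpm1, Optc, Col18a1, Ptgds, Sned1, Cp, Aldoc, Penk, Slc6a6 and Ppp1r1a, the 5 highest members of each make 75 places, which 18 barcodes filled, 17 of them from tropicamide pools. Just 5 barcodes were among the highest for 5 or more of these 15 genes, 2 in tropicamide pool 1, 2 in pool 2 and 1 in pool 3, none of them in a saline pool. These 5 make up 1.19% of the members and 3.21% of their UMIs. The 5 held 87.6% of the UMIs of Ptgds and 81.5% of those of Penk, but 25.5% of those of Cp, 25.5% of those of Dapl1 and 35.7% of those of Slc6a6, which was detected in 321 members. They were picked out after the values were seen, and no test was made on them.

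Ptgds, which codes for a prostaglandin D synthase, shows the pattern for its level, though not for its detection. In the tropicamide pools it was detected in 64 of 115, 78 of 121 and 26 of 51 members. In the saline pools it was detected in 6 of 36, 3 of 19 and 27 of 79. It had 1102, 563 and 4167 CPM in the tropicamide pools, against 37.9, 10.0 and 102 CPM in the saline pools, and 87.6% of its UMIs lay in the 5 barcodes. Without them it stood at 193, 106 and 89.3 CPM in the tropicamide pools, against 37.9, 10.0 and 102 CPM in the saline pools, and the groups overlapped. The groups also overlapped without them for Optc, which codes for opticin, for Penk, the enkephalin precursor, and for the taurine transporter gene Slc6a6.

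Dkk3 without the 5 barcodes stood at 39.6, 49.0 and 28.6 CPM in the tropicamide pools, against 24.1, 26.7 and 22.2 CPM in the saline pools, and the groups still did not overlap. The gap was narrow, at 28.6 CPM in tropicamide pool 3 against 26.7 CPM in saline pool 2, whose members held only 299906 UMIs. No test was made without the 5 barcodes. Crhbp was left at no more than 0.599 CPM in a tropicamide pool, against up to 1.77 CPM in a saline pool. Dapl1 without them had 254, 365 and 3.57 CPM in the tropicamide pools, against 5.17, 0 and 4.43 CPM in the saline pools, so tropicamide pool 3 no longer stood apart. Cp, which codes for the ferroxidase ceruloplasmin, kept 70.1, 102 and 84.0 CPM in the tropicamide pools, against 58.6, 53.4 and 56.7 CPM in the saline pools, without overlap.

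**Figure D3:**
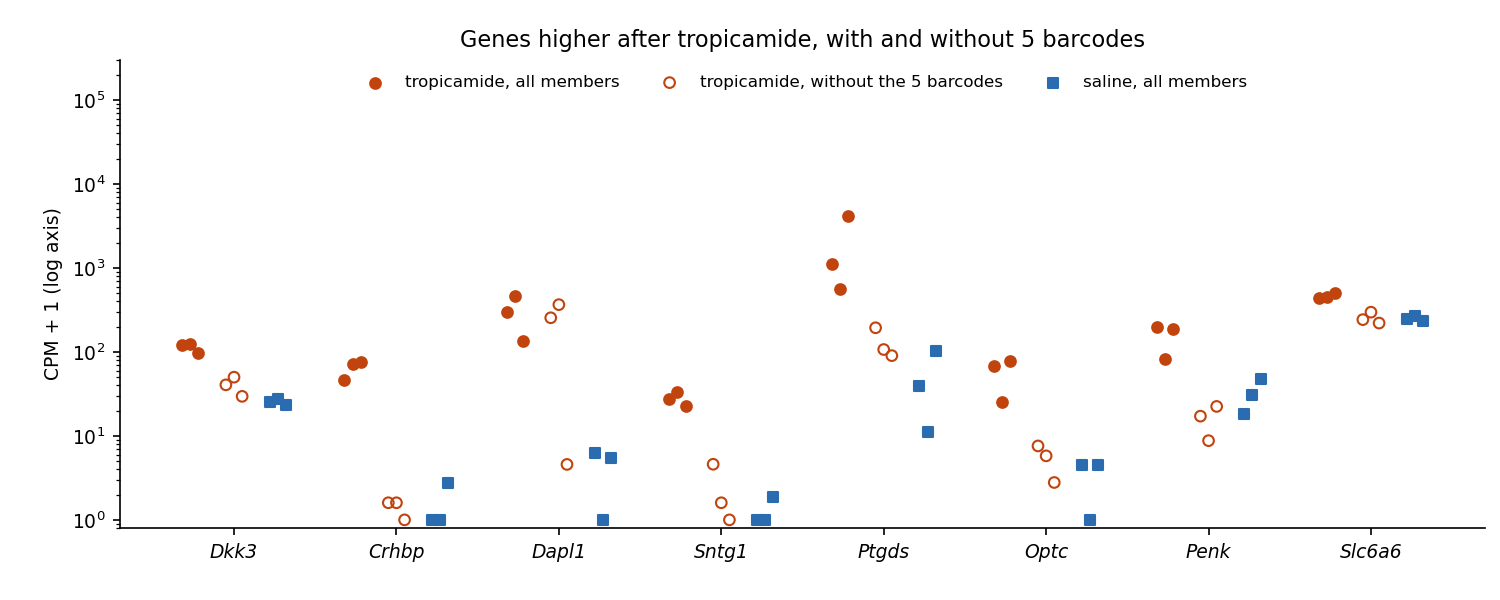
CPM + 1 (log axis) of 8 genes in the summed gated fibroblasts, with filled circles for the tropicamide pools, open circles for the tropicamide pools without the 5 barcodes named in the text, and squares for the saline pools. Without the 5 barcodes Crhbp falls to at most 0.599 CPM and Ptgds overlaps with saline. Dkk3 then lies at 28.6 to 49.0 CPM, narrowly above the saline pools at 22.2 to 26.7 CPM.

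The 5 barcodes all lay in sub-cluster 3. They met the Dcn limit narrowly, with 5 to 11 UMIs of Dcn, and were large, with 23372 to 60303 UMIs and 5991 to 8439 genes. Their mitochondrial share was 5.21% to 16.7%, none carried the keratocyte markers, and Scrublet called 1 of them a doublet. The genes that led them over the other members were Crhbp, Slc6a13, Best2, Slc13a4, Cldn2, Zic1, Tceal6 and Ptgds. Of the 7 genes of the ciliary and iris epithelium list, 5 were detected in all 5 barcodes, and the list summed to 1138 CPM in them, against 929 CPM in the other members. One gene of this list, Aqp1, stood at 1363 CPM in the keratocyte-like sub-cluster, which raises the sum of the other members. In the 5 barcodes Tyrp1, also in the melanocyte list, stood at 373 CPM, against 1.18 CPM in the other members. Zic1 stood at 337 CPM against 0.508, and Cldn2, a tight junction gene, at 245 CPM against 0. Of the 7 genes, 1 had no UMI in any of the 5 barcodes. The meningeal fibroblast list, which includes Ptgds and Slc6a13, summed to 25632 CPM in the 5 barcodes, against 5373 CPM in the other members. Ptgds alone stood at 24739 CPM in the 5 barcodes, against 117 CPM in the other members. Of the 13 genes of the list, 5 had no UMI in any of the 5 barcodes. The melanocyte list summed to 2944 CPM in the 5 barcodes, against 22.5 CPM in the other members. Only 1 of its 7 genes was detected in all 5 barcodes, and 1 had no UMI in any. The Müller glia list, which includes Dkk3, summed to 4225 against 721 CPM, with 5 of its 7 genes detected in all 5. The tenocyte and scleral list summed to 378 against 2530 CPM. The part of other cell types in the calls was not tested.

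The calls depended on single pools and on the gate. None of the 4 was left without saline pool 1 or without saline pool 2, where edgeR called 0 genes (626 and 609 at an unadjusted p under 0.05), and 1 of the 4, Dapl1, was left among the 2 genes called without tropicamide pool 2. With Dcn of at least 10 UMIs edgeR called 0 of 8231 genes (433 at an unadjusted p under 0.05), and with doublet calls removed 0 of 9011 (431 at an unadjusted p under 0.05).

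Genes that lay lower after tropicamide were spread over many members. None passed edgeR's threshold, and DESeq2, run as an alternative, called 6 lower, namely Klf2, Klf4, Junb, Zfp36, Plk2 and Dnajb1, among its 27. Of the 9096 genes, 268 had every tropicamide pool below every saline pool (2.95%) and 980 every tropicamide pool above (10.8%). Overlap was judged on plain CPM throughout, while edgeR's fold changes and p-values used TMM scaling. The TMM factors were 1.02 to 1.06 in the tropicamide pools, against 0.925 to 0.982 in the saline pools. Plain CPM thus places the tropicamide pools higher, relative to saline, than the fold changes do. At an unadjusted p under 0.05 there were 514 genes (5.65%), 228 higher (2.51%) and 286 lower (3.14%), and 52.1% of all genes lay below 0.

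Klf2, a transcription factor induced by flow and stretch, had 540, 641 and 648 CPM in the tropicamide pools, against 1150, 1947 and 1041 CPM in the saline pools (log2 fold change -1.30 ± 0.25, SE; edgeR adjusted p = 0.212). Its relative Klf4 had 453, 477 and 462 CPM in the tropicamide pools, against 802, 624 and 791 CPM in the saline pools (-0.79 ± 0.15, edgeR adjusted p = 0.233). Both lay lower in every tropicamide pool. In saline pool 2 the 19 members gave 584 UMIs of Klf2, the highest level of the 6 pools. Among members without any UMI of the 3 programs, edgeR called 1 of 7031 genes, and it was Klf2, lower after tropicamide.

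Junb, a subunit of the AP-1 transcription factor, had 1566, 1669 and 1452 CPM in the tropicamide pools, against 2418, 2584 and 2094 CPM in the saline pools (log2 fold change -0.71 ± 0.14, SE; edgeR adjusted p = 0.24). Zfp36, which codes for a protein that speeds the decay of cytokine mRNAs, had 509, 574 and 524 CPM in the tropicamide pools, against 802, 787 and 842 CPM in the saline pools (-0.71 ± 0.14, edgeR adjusted p = 0.24). Plk2, a stress-induced kinase gene, had 45.1, 30.3 and 47.0 CPM in the tropicamide pools, against 77.6, 86.7 and 94.8 CPM in the saline pools (-1.23 ± 0.22, edgeR adjusted p = 0.148). The groups overlapped for none of the 3. The 5 highest members held 8.12% of the UMIs of Junb, 11.5% of those of Zfp36 and 23.96% of those of Plk2, a wider spread than for the genes above, and the 5 barcodes described there held 3.58%, 3.60% and 0.888%.

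The promoters of 4 of these genes, which lay lower together, are shown because they carry elements known from early response genes. They run from 250 bases before to 50 bases after the start site, 5′ to 3′ on the gene's strand, from RefSeq on build GRCm38.p6, which is not the GRCm39 build of the counts. Capitals mark the core TGACG of the cAMP response element, which CREB binds, the TATA box TATAAA, and the CArG box, which serum response factor binds, each searched on both strands.
Klf2, chr8:72318812-72319111, plus strand: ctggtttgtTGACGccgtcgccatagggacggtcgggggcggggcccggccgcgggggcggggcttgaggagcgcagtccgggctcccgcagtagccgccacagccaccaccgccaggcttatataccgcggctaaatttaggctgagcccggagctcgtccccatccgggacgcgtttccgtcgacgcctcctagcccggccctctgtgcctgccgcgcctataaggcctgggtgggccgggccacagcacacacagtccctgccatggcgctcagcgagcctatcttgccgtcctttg
Klf4, chr4:55532426-55532725, minus strand: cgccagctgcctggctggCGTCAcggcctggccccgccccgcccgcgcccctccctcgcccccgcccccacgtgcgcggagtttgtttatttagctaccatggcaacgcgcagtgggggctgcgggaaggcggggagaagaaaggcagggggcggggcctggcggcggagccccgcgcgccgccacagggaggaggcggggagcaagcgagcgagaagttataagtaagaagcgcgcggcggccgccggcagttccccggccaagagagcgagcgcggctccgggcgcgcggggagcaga
Junb, chr8:84978699-84978998, minus strand: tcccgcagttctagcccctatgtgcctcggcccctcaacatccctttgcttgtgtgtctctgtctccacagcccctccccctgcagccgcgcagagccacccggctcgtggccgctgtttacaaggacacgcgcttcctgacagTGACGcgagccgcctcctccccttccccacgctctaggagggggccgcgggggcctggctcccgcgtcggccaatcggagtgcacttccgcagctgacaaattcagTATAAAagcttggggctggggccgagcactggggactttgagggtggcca
Zfp36, chr7:28379179-28379478, minus strand: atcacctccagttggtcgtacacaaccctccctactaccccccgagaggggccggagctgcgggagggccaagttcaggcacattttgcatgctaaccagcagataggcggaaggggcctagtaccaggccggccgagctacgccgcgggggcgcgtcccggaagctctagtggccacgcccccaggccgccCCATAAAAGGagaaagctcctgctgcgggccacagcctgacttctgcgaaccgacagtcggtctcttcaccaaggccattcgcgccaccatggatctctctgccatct
The promoters of Klf2, Klf4 and Junb each hold 1 match of TGACG, starting 241, 232 and 106 bases before the start site. That of Junb also holds a TATAAA match, which begins at the annotated start site and not upstream of it, and that of Zfp36 a CArG box match starting 58 bases before the start site. TGACG is held by 20.8% of all 32851 RefSeq promoters of the same length, TATAAA by 13.6% and a CArG box by 1.63%. Of the 29 promoters of the 23 listed early response genes found there, 17 (58.6%) hold TGACG, 6 (20.7%) TATAAA and 4 (13.8%), all of 1 gene, a CArG box. A match describes letters, not binding.

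**Figure D4:**
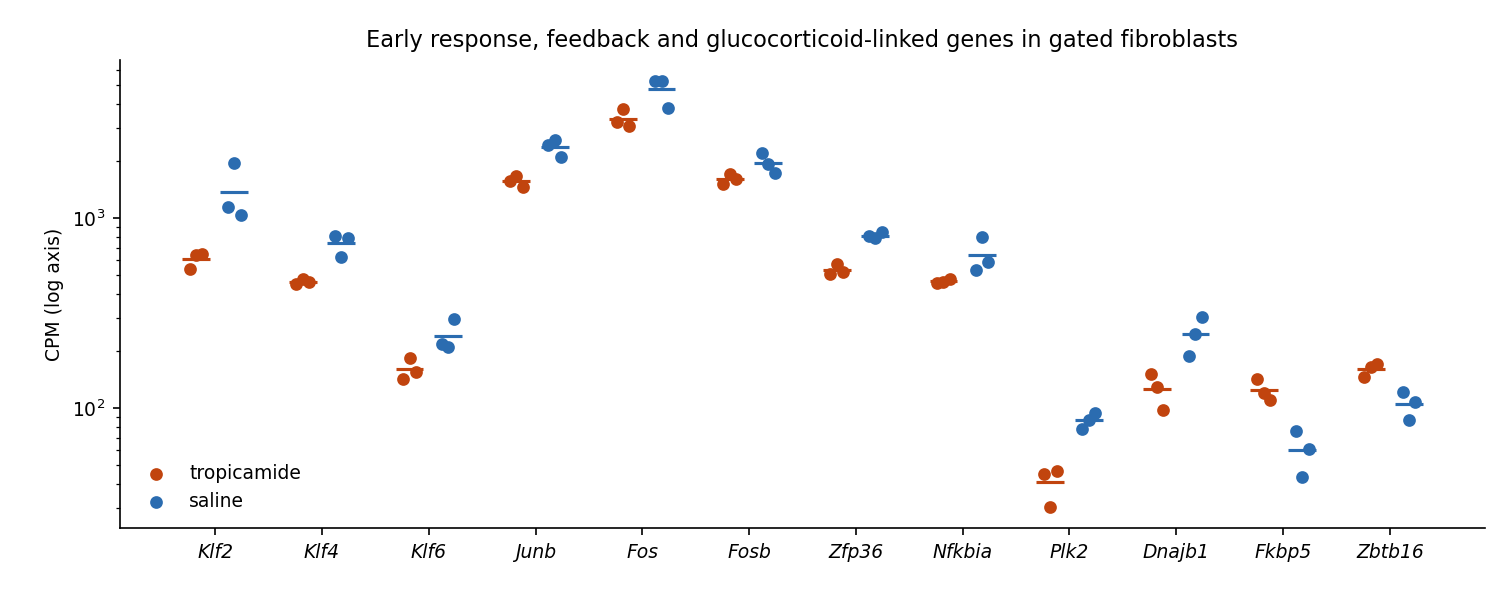
CPM (log axis) of 12 genes in the summed gated fibroblasts, with 1 point per pool, tropicamide left of saline, and the mean of 3 pools as a line. The first 10 genes lie lower in every tropicamide pool, and Fkbp5 and Zbtb16 lie higher in every tropicamide pool.

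Of 28 immediate early genes tested, none passed, 23 lay below 0 and 6 had every tropicamide pool below every saline pool, beside 2.95% of all genes. Of the 28, 11 were lower at an unadjusted p under 0.05, beside 3.14% of all genes. Their median log2 fold change was -0.47, beside -0.01 over all 9096 genes. Summed over the list they took 17914, 19190.5 and 18197 CPM in the tropicamide pools, against 25379, 26628 and 21275 CPM in the saline pools, without overlap. Fos, the partner of Jun in AP-1, had 3201, 3744 and 3054 CPM in the tropicamide pools, against 5254, 5262 and 3828 CPM in the saline pools (log2 fold change -0.64 ± 0.16, SE; edgeR adjusted p = 0.515). Egr1, a factor tied to eye growth in several species, had 1586, 1566 and 1457 CPM in the tropicamide pools, against 2146, 2357 and 1513 CPM in the saline pools (-0.50 ± 0.18, edgeR adjusted p = 0.788), and overlapped, since saline pool 3 lay below tropicamide pools 1 and 2. Klf6 and Fosb lay lower in every tropicamide pool, as did Klf2, Klf4, Junb and Fos, at log2 fold changes of -0.71 for Klf6 and -0.39 for Fosb, while Jun and Btg2, at -0.44 and -0.56, overlapped.

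The pattern was looked at in both kinds of member, a split made after the values were seen and so without a test of its own. In members with keratocyte markers the list took 21494, 19701 and 19155 CPM in the tropicamide pools, against 26455, 24721 and 21360 CPM in the saline pools, with a slight overlap. In the other members it took 10935, 18134 and 16880 CPM in the tropicamide pools, against 20859, 34057 and 21169 CPM in the saline pools, without overlap. Klf2 in the keratocyte-marker members had 694, 759 and 757 CPM in the tropicamide pools, against 1356, 1861 and 1066 CPM in the saline pools. In the other members its groups overlapped, at 239, 397 and 498 CPM in the tropicamide pools, against 287, 2285 and 1009 CPM in the saline pools.

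Inflammatory feedback genes, which damp cytokine signalling, lay alongside the early genes. Of 16 tested none passed, 15 lay below 0 with a median of -0.48, and Zfp36, Nfkbiz and Nfkbia had every tropicamide pool below every saline pool, as did 2.95% of all genes. Nfkbia, the inhibitor of NF-kappaB, had 458, 461 and 480 CPM in the tropicamide pools, against 535, 794 and 591 CPM in the saline pools (log2 fold change -0.57 ± 0.19, SE; edgeR adjusted p = 0.783). Of 16 heat shock genes none passed, 10 lay below 0 with a median of -0.11, and the co-chaperone genes Dnajb1, at 151, 130 and 97.4 CPM in the tropicamide pools against 188, 247 and 301 CPM in the saline pools, and Bag3 lay lower in every tropicamide pool. Hsf1 and Dnajb4 of the same list lay higher in every tropicamide pool, as did 10.8% of all genes, at log2 fold changes of 0.27 and 0.17. Of 21 chemokines and cytokines 13 were tested and none passed. Ccl2, a monocyte attractant, had 98.7, 37.8 and 97.4 CPM in the tropicamide pools, against 310, 56.7 and 199 CPM in the saline pools, and overlapped, while Il33, an alarm cytokine, lay higher in every tropicamide pool at 66.8, 54.9 and 35.3 CPM, against 24.1, 3.33 and 26.6 CPM in the saline pools.

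Of 18 mechanical load genes none passed, 13 lay below 0 with a median of -0.22, and 4 had every tropicamide pool below every saline pool, beside 2.95% of all genes. The 4 were Rhob, a small GTPase gene, Pxn, which codes for paxillin of focal adhesions, and Yap1 and Wwtr1, the YAP and TAZ coactivators, at log2 fold changes of -0.93, -0.81, -0.58 and -0.46 (edgeR adjusted p of 0.515 to 0.83). None of the 18 lay higher in every tropicamide pool. In the members without keratocyte markers Pxn turned round, to 0.72. Wwtr1 had 307, 326 and 321 CPM in the tropicamide pools, against 342, 477 and 391 CPM in the saline pools.

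Of 18 glucocorticoid targets none passed, 12 lay above 0 with a median of 0.21, and 3, Fkbp5, Zbtb16 and Sgk1, had every tropicamide pool above every saline pool, as did 10.8% of all genes. Nfkbia, which is in this list too, lay lower in every tropicamide pool. Sgk1 turned round in 4 alternatives, to -0.0069 with doublet calls removed, -0.0051 in members with keratocyte markers, -0.058 with Dcn of at least 0.5% of UMIs and -0.20 in thinned members, where Zbtb16 turned to -0.095. Fkbp5, a co-chaperone of the glucocorticoid receptor that is itself induced by it, had 143, 121 and 111 CPM in the tropicamide pools, against 75.9, 43.3 and 61.2 CPM in the saline pools (log2 fold change 0.91 ± 0.20, SE; edgeR adjusted p = 0.379). It was detected in 57.4%, 62.0% and 45.1% of the members of the tropicamide pools, against 66.7%, 31.6% and 30.4% in the saline pools. Saline pool 1 had the highest share, so the groups overlapped in detection. The level of Fkbp5 lay higher in every tropicamide pool in the keratocyte-marker members, at 120, 98.4 and 89.9 CPM against 72.6, 25.1 and 40.0 CPM. The same held in the other members, at 187, 167 and 140 CPM against 89.7, 114 and 87.5 CPM.

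Of 17 circadian clock genes none passed, 9 lay above 0 and 5 had every tropicamide pool above every saline pool, beside 10.8% of all genes. Clock had 91.9, 84.7 and 106 CPM in the tropicamide pools, against 58.6, 46.7 and 58.5 CPM in the saline pools (log2 fold change 0.63 ± 0.18, SE; edgeR adjusted p = 0.671), Bhlhe41 had a log2 fold change of 0.52 and Ciart, a clock repressor, of 1.87 at levels of up to 25.2 CPM. Of 16 cholesterol synthesis genes none passed and 13 lay above 0 with a median of 0.47, and 1 had every tropicamide pool above every saline pool. Sqle, which codes for squalene epoxidase, had 33.7, 26.9 and 13.4 CPM in the tropicamide pools, against 5.17, 3.33 and 16.0 CPM in the saline pools, and overlapped.

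**Figure D5:**
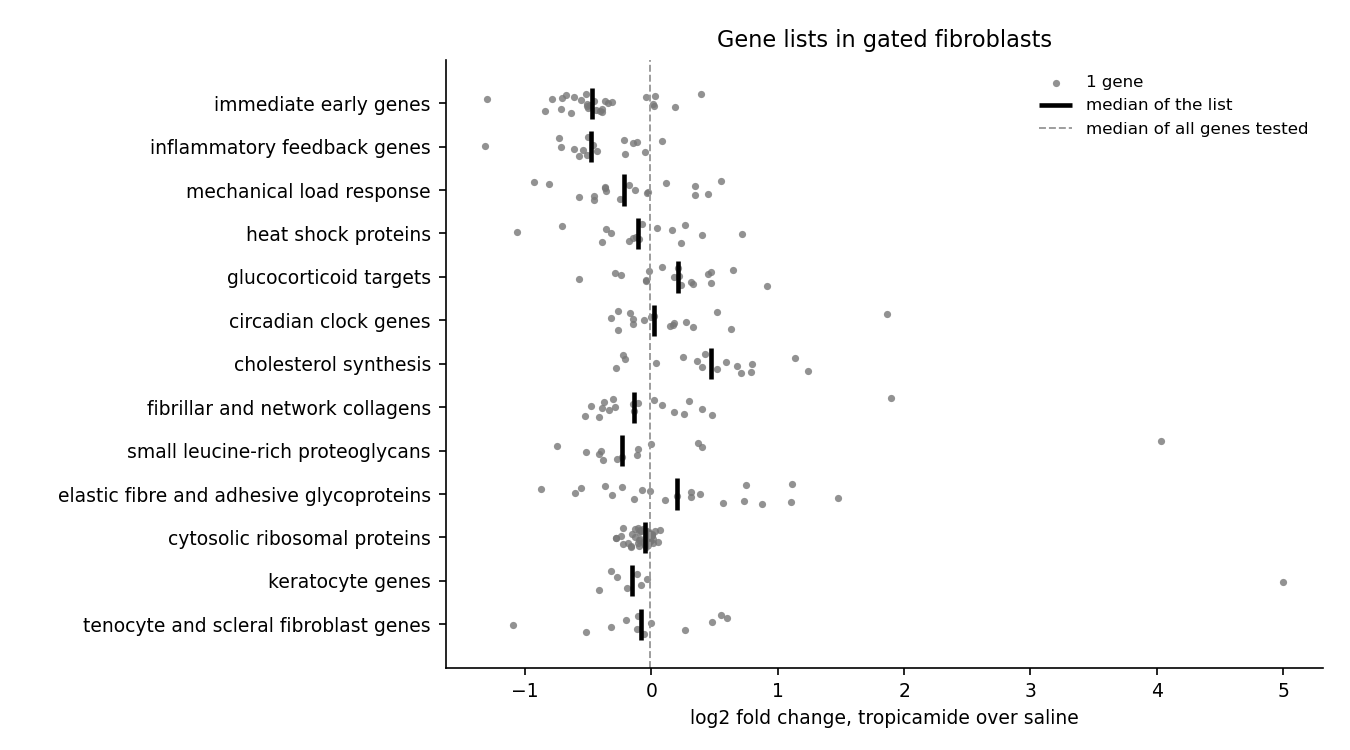
Log2 fold change (tropicamide over saline) of the tested genes of 13 lists in the gated fibroblasts, with 1 grey point per gene, a black bar at the list's median and a dashed line at the median of all genes tested. The medians of the immediate early and inflammatory feedback lists lie at -0.47 and -0.48 and that of cholesterol synthesis at 0.47, while the ribosomal protein genes sit close together around -0.05.

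No matrix gene passed, in lists that also hold the collagens, Dcn and Lum of the rule. Over all genes, 10.8% lay higher and 2.95% lower in every tropicamide pool. Of 19 collagen genes 11 lay below 0 with a median of -0.14, while 3, Col18a1, Col5a3 and Col4a2, lay higher and 0 lower in every tropicamide pool. Col6a3, a chain of the pericellular collagen, had 1373, 1265 and 1390.0 CPM in the tropicamide pools, against 1913, 1867 and 1383 CPM in the saline pools, and overlapped. Of the 13 small leucine-rich proteoglycans none passed and 10 lay below 0 with a median of -0.23, with Optc, held mostly by the 5 barcodes, far above the others at 4.03 and higher in every tropicamide pool, and Omd, at -0.51, lower in every one. Of 21 elastic fibre and adhesive glycoproteins none passed and 12 lay above 0 with a median of 0.21, and 6 lay higher and 1 lower in every tropicamide pool.

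Among them Fbn1, the microfibril protein fibrillin, had 196, 174 and 201.4 CPM in the tropicamide pools, against 126, 133 and 101 CPM in the saline pools (log2 fold change 0.57 ± 0.17, SE; edgeR adjusted p = 0.753). Ltbp1, which tethers latent TGF-beta to those microfibrils, had 286, 312 and 300.5 CPM in the tropicamide pools, against 428, 473 and 362 CPM in the saline pools (-0.60 ± 0.17, edgeR adjusted p = 0.671). Efemp1, a fibulin of eye and vessel walls, had 49.7, 88.7 and 89.0 CPM in the tropicamide pools, against 24.1, 10.0 and 31.9 CPM in the saline pools, and Vcan, the proteoglycan versican, lay at 28.6 to 45.1 CPM in the tropicamide pools, against 6.67 to 17.2 CPM in the saline pools. Of the matrix proteases and their inhibitors, Timp3, an inhibitor, had 787, 588 and 673 CPM in the tropicamide pools, against 442, 387 and 520.3 CPM in the saline pools (0.48 ± 0.17, edgeR adjusted p = 0.799).

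Of the remaining signalling lists, Wnt signalling held 1 called gene, Dkk3, among 13 tested, and its members Dkk2 and Sfrp4 lay lower at an unadjusted p under 0.05. Of 22 TGF-beta and BMP genes, 19 growth factor genes, 6 retinoic acid genes and 20 refractive error genes tested none passed, with medians of -0.10, -0.20, -0.11 and 0.09. Crabp1, a carrier of retinoic acid, had 34.2, 35.5 and 31.9 CPM in the tropicamide pools, against 72.4, 43.3 and 60.3 CPM in the saline pools (log2 fold change -0.92 ± 0.22, SE; edgeR adjusted p = 0.488). Of the 44 ribosomal protein genes and 13 mitochondrially encoded genes none passed, with medians of -0.05 and 0.01.

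The receptors that tropicamide blocks were near the limit of detection. Over all 421 members Chrm3 had 21 UMIs in 9 members, Chrm2 had 10 in 5 and Chrm1 had 3 in 2, and none was tested. Chrm4 and Chrm5 had 0 UMIs in 421 members, which allows a share of members with a UMI of up to 0.713%, by a limit of 3 counts that covers counting error only. Of the other genes looked at in every case, Sox4, Sox9, H1f2 and Tmeff2 overlapped between the groups, at log2 fold changes of -0.12, 0.34, -0.13 and -0.63, and Esr1, too low to be tested, had 11.4, 8.01 and 10.1 CPM in the tropicamide pools, against 32.8, 10.0 and 14.2 CPM in the saline pools.

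Transcripts of other cell types were also summed. The rod list, with 12 of 12 genes detected, took 2640 to 3937 CPM in the tropicamide pools, against 1170 to 2570 CPM in the saline pools, and the retinal pigment epithelium list, with 8 of 8 detected, took 199.8 to 330.5 CPM in the tropicamide pools, against 23.3 to 131 CPM in the saline pools, neither with overlap. The melanocyte list took 26.9 to 212 CPM in the tropicamide pools, against 3.33 to 20.4 CPM in the saline pools, and the Müller glia list 797 to 1038 CPM in the tropicamide pools, against 585 to 734 CPM in the saline pools, again without overlap. The Müller glia list includes the called gene Dkk3, and no sum was made without that gene. In the 5 barcodes described above the melanocyte list stood at 2944 CPM, against 22.5 CPM in the other members. The rod list went the other way there, at 1607 against 2674 CPM. The erythrocyte list took 25.1, 83.5 and 95.7 CPM in the tropicamide pools, against 8.62, 3.33 and 7.09 CPM in the saline pools, and in the Pi16 program 25.9, 87.8 and 55.3 CPM in the tropicamide pools, against 5.66, 3.74 and 2.10 CPM in the saline pools, neither with overlap. In the Wnt6 program it overlapped, at 30.8, 106 and 66.6 CPM in the tropicamide pools, against 13.9, 16234 and 1.43 CPM in the saline pools. The corneal epithelium list took 28.5 to 5402 CPM in the tropicamide pools, against 3.33 to 6173 CPM in the saline pools. Of the 7 lymphocyte genes 6 were at 0, Mrc1 of macrophages was at 0, and Pecam1 was at 0 by the rule. The part of these transcripts in the differences above was not tested.

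The last question was whether the members changed differently from their neighbours in the same pools. limma was fitted to the difference between the members and each program within a pool, over the 5 pools with at least 20 cells of both kinds, which left out saline pool 2 with its 19 members. Against the Pi16 program 0 of 10316 genes passed (0%; 534, or 5.18%, at an unadjusted p under 0.05), and against the Wnt6 program 0 of 8324 (0%; 489, or 5.87%, at an unadjusted p under 0.05). The smallest p belonged to Gpx3, Fam117a, Minar2, Srrm4 and Sned1 against the Pi16 program (limma adjusted p = 0.729 for each) and, leaving out a clone-like name, to Ccdc148, Prune1, Ehd1, Aacs and Gab3 against the Wnt6 program (limma adjusted p = 0.812 for each). Only tropicamide pool 1 held at least 20 cells of the Smoc1 program, so that difference was not fitted.

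Early response genes also lay lower in the Pi16 program, taken from the same pools. Its own edgeR fit called 0 of 12617 genes, and that of the Wnt6 program 0 of 8156. In the Pi16 program 27 of 29 immediate early genes lay below 0 with a median of -0.59, beside 0.01 over all genes tested there, and in the Wnt6 program 18 of 29 with a median of -0.05. The list took 8877, 18130 and 19864 CPM in the Pi16 program of the tropicamide pools, against 20834, 22385 and 21882 CPM in the saline pools. Tropicamide pool 1 lay far below the other 5 pools there. For Klf2 the log2 fold change was -1.30 ± 0.25 in the gated fibroblasts, -0.66 ± 0.28 in the Pi16 program and -0.29 ± 0.14 in the Wnt6 program (SE), and the difference from the Wnt6 program, -0.68 ± 0.27, did not pass (limma adjusted p = 0.812). Fkbp5 stood at 0.91 ± 0.20, 0.93 ± 0.16 and 1.00 ± 0.20 in the same order, with differences of -0.11 ± 0.25 from the Pi16 program and -0.13 ± 0.29 from the Wnt6 program (limma adjusted p = 0.976 and 0.952). Of the cholesterol synthesis genes, 13 of 16 lay above 0 in the gated fibroblasts, 6 of 17 in the Pi16 program and 2 of 12 in the Wnt6 program, and no difference was tested for the list.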

How the data were processed

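The study measured single-cell RNA in 6 pools of mouse eyes. The deposited counts are UMI counts per gene and barcode, not normalized, made with Cell Ranger 8.0.1 and STAR on build GRCm39 per the submitters' processing notes; the sources used here name no cell-calling settings, and the labels' extraction protocol describes bone tissue. The matrices hold 33696 genes. Free RNA was not removed. Counts of the members were summed per pool (299906 to 1752009 UMIs a pool, which sets the precision) and compared with edgeR 4.0.16 in R 4.3.3 (TMM, filterByExpr, quasi-likelihood, Benjamini-Hochberg), DESeq2 1.42.0 being an alternative. SEs are the log2 fold change divided by the square root of F. Differences between programs were fitted with limma 3.58.1 on log2 CPM with a prior count of 2, and shares compared by exact permutation. Members were clustered with scanpy 1.11.5 (2000 variable genes, 20 components, 15 neighbours, Leiden at resolution 0.5). P-values measure the spread between pools.

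Named genes were those past an adjusted p of 0.05 with mean CPM of at least 20 and no overlap, filled up to 20 by smallest p, list members of smallest p or highest level, and some fixed names. Clone-like names were left out. Some genes are not reported here. The members and lists were chosen with earlier results of these data known. The scripts were tested on simulated data. Alternatives were other scaling, DESeq2, no low-count filter, a replicate block, each pool left out, stricter gates, doublet removal, thinning to 1000 UMIs and genes at least as high as in rods.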

Additional observations from a re-analysis of the deposited data

How the results depend on the processing

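The pools are few and small, so the count of called genes is fragile and a gene of moderate change that is not called may still differ. Replicate numbers were given by the labels. The deviations of same-numbered pools from their group means had correlations of -0.253, -0.0942 and -0.456 over the genes. Deviations from a mean of 3 pools are tied to each other, so these values cannot decide whether the numbers pair the samples. The main fit did not pair them. With the replicate block edgeR called 5 genes, 3 of them among the 4, and the block gave a mean log2 ratio of 1.00 for the share, with a sign test p of 1 (exact). The 4 called genes became 27 with DESeq2's test, 234 without a low-count filter, 7 with only genes at least as high as in rods, 1 at 10% mitochondrial UMIs, 1 without any UMI of the 3 programs (Klf2, lower), and 0 with Dcn of at least 10 UMIs, with doublet calls removed or thinned to 1000 UMIs (1076 genes tested). Leaving out 1 pool gave 0 to 6. Chosen after seeing the data, the limits gave 0 with Dcn of at least 0.5% of UMIs, 0 in members with keratocyte markers and 1 in the other members (Crhbp). In edgeR or DESeq2 the 4 kept their call in 8 of 18 alternatives with a value (Dkk3), 9 of 13 (Crhbp), 10 of 13 (Dapl1) and 4 of 13 (Sntg1). Over its 18 alternatives the log2 fold change of Dkk3 ran from 0.158 to 2.66, with an adjusted p of up to 0.993 (edgeR or DESeq2). The share stayed higher after tropicamide in every alternative, with log2 ratios of 0.55 to 1.49 when 1 pool was left out, and its p stayed at or above 0.2. The difference tests gave 0 in every alternative that was run, and that against the Smoc1 program was not run.

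Of 982 gene and alternative pairs, 880 kept their direction and side of the threshold, 26 lost the call, 45 gained one and 31 turned round; 42 of 57 genes never turned. Leaving out 1 pool, log2 fold changes ran from -0.28 to 0.19 for Sox4, -0.47 to 1.92 for Sox9, -0.36 to 0.12 for H1f2, -0.36 to 0.064 for Fmod, -0.33 to 0.019 for Aldh3a1 and -0.33 to 0.068 for Angptl7. With Dcn of at least 10 UMIs Penk was at -0.51 and Angptl7 at 0.051, and without any UMI of the 3 programs Fmod was at 0.48. Sgk1 was at -0.0069 with doublet calls removed and, thinned, at -0.20, with Zbtb16 at -0.095. With Dcn of at least 0.5% of UMIs Col18a1 was at -0.22, Sned1 at -0.072, Penk at -1.32, Slc6a6 at -0.18, Sgk1 at -0.058 and Angptl7 at 0.10. In members with keratocyte markers Cp was at -0.20, Slc6a6 at -0.029, Sgk1 at -0.0051, Angptl7 at 0.17 and Fmod at 0.37, and in the others Ccl2 at 0.75, Sox4 at 0.018, H1f2 at 0.18, Pxn at 0.72 and Aldh3a1 at 0.71. The cause of these turns was not tested.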

Other observations

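None of the genes of the lists below passed edgeR's test, and their values are given as a description. Of 19 hypoxia and glycolysis genes 7 lay above 0 with a median log2 fold change of -0.03, yet the list summed to 2559, 2181 and 2424 CPM in the tropicamide pools, against 2068, 1937 and 2178 CPM in the saline pools. Eno1, the glycolytic enolase, had 103, 105 and 112 CPM in the tropicamide pools, against 44.8, 63.4 and 63.8 CPM in the saline pools (0.78 ± 0.19, SE; edgeR adjusted p = 0.491). Vegfa, the vascular growth factor, had 53.7, 46.3 and 53.7 CPM in the tropicamide pools, against 60.4, 63.4 and 77.1 CPM in the saline pools (-0.53 ± 0.19, edgeR adjusted p = 0.784). Both lay apart between the groups, in opposite directions.

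Of 12 interferon-stimulated genes 8 lay above 0 with a median of 0.10. Ifit3, an antiviral effector gene, had 49.7, 40.0 and 50.4 CPM in the tropicamide pools, against 13.8, 23.3 and 22.2 CPM in the saline pools, without overlap (log2 fold change 1.12 ± 0.27, SE; edgeR adjusted p = 0.488). Of 12 antigen presentation and complement genes 9 lay below 0 with a median of -0.17, and none stood apart between the groups. Of 17 endoplasmic reticulum chaperones 8 lay above 0 with a median of -0.01, and 5 of them lay higher in every tropicamide pool, beside 10.8% of all genes. Among 19 growth factors and their binding proteins Fgfr1, a receptor for fibroblast growth factors, had 330.5, 310.1 and 275 CPM in the tropicamide pools, against 404, 397 and 367 CPM in the saline pools (-0.46 ± 0.16, edgeR adjusted p = 0.783).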
